A study of Mus musculus with 10 samples.

Results

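The miR-290 cluster locus was taken as every peak that overlapped chr7:3190000-3250000 on mouse build mm9, in 10 peak lists from chromatin immunoprecipitation followed by sequencing (ChIP-seq). It held 39 of the 543779 peaks in those lists. The window was set by position and not by any measured value, but it was chosen with earlier results of these data known. The placing of the microRNA precursors, between about 3218600 and 3220850, came with the definition of the window and was not checked against an mm9 annotation here. RefSeq puts the hairpins at nearly the same positions of the later build GRCm38.p6, so distances to the block hold only if the locus lies at like positions in both builds. This stretch of 2.251 kb is called the precursor block below.

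The cells were R1E mouse embryonic stem cells of the C57BL/6X129Sv mix background, kept under 20 passages and grown in serum with leukemia inhibitory factor. They were either untreated or given 0.5 uM Adriamycin for 8 h. Adriamycin is doxorubicin, a drug that traps topoisomerase II on DNA and so causes breaks. Antibodies to 5 targets were used, namely H3K4me3 (histone H3 trimethylated at lysine 4, a promoter mark), RNA polymerase II (Pol II), H3K79me2 (a mark of transcribed chromatin), H3K27me3 (the Polycomb mark) and hnRNP L (a protein that binds RNA and acts in splicing). With 1 library for each target and condition, no difference below has a replicate check or a p-value. The lists ran from 1022 peaks (hnRNP L, Adriamycin) to 97639 peaks (H3K27me3, untreated), and the read depth behind them is unknown.

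The miR-290 cluster is a group of microRNA genes, of which those on the plus strand are made from 1 primary transcript. A microRNA pairs with messenger RNAs mainly through its seed, the bases near its 5′ end, and lowers their stability or translation. In mouse embryonic stem cells the cluster gives many of the most abundant microRNAs. Its members with the AAGUGC core in the seed are known to shorten the G1 phase of the cell cycle, partly by acting on Cdkn1a, which encodes the cell cycle inhibitor p21. The cluster is silenced as the cells differentiate.

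The sequence tables from RefSeq (build GRCm38.p6) matched 9 microRNA genes of the cluster, namely Mir290a, Mir290b, Mir291a, Mir291b, Mir292, Mir292b, Mir293, Mir294 and Mir295, with 17 mature microRNAs. The 3′ arms below are shown because the cluster is best known for their shared seed. They are written 5′ to 3′ with the seed, bases 2 to 8, in capitals.
mmu-miR-291a-3p: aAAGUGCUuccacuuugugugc
mmu-miR-294-3p: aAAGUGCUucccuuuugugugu
mmu-miR-295-3p: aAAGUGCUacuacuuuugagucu
mmu-miR-290a-3p: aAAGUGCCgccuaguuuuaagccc
mmu-miR-291b-3p: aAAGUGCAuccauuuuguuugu
mmu-miR-293-3p: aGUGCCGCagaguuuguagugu

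The first 3 shared the seed AAGUGCU, which outside the cluster was found in 2 of the table's mature microRNAs, mmu-miR-302b-3p and mmu-miR-302d-3p. The miR-302 family is the other large microRNA family of pluripotent cells. The 3′ arms of miR-290a and miR-291b held the same AAGUGC at base 2 with another last base of the seed. The arm of miR-293 did not hold AAGUGC, and its seed was GUGCCGC. Of the 17 mature microRNAs matched, which do not take in mmu-miR-292a-3p, 6 held AAGUGC within their first 8 bases. That count also takes in mmu-miR-290b-3p, which comes from the opposite strand and holds it from base 1. In the whole table of 1679 mature microRNA names, 18 did.

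The 5′ arms had other seeds, none with AAGUGC. The commonest is shown, since 3 arms shared the seed CUCAAAC, which no other mature microRNA of the table carried.
mmu-miR-290a-5p: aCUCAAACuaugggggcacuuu
mmu-miR-292a-5p: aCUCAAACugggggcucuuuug
mmu-miR-293-5p: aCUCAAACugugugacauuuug

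Both arms come from 1 folded precursor. In the Mir290a hairpin of 83 bases, the first of the cluster on the plus strand, the mature arms stand in capitals.
Mir290a hairpin: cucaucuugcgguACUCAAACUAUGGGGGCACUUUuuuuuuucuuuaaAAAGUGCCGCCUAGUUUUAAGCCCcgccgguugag

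RefSeq also lists a long non-coding gene at the cluster, D7Ertd143e, which overlaps 7 of the 9 hairpins, all but Mir290a and Mir290b. Its promoter, here the 300 bases around its start as RefSeq's table cuts them, contains the Mir290a hairpin from base 93 to base 175 (GRCm38.p6 chr7:3218534-3218833, plus strand). The sequence is printed to show where the first precursor lies within it, with the hairpin in capitals. The peaks below are on mm9, and this sequence was not placed among them.
D7Ertd143e promoter: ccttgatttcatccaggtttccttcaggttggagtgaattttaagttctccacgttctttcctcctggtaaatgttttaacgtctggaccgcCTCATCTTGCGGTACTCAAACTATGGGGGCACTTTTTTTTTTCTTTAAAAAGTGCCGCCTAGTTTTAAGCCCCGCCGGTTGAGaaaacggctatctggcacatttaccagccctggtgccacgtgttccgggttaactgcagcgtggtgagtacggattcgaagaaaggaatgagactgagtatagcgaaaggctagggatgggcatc
It held 14 CpG dinucleotides, against a median of 7.0 over the 32851 RefSeq promoters of the same length. The TATA motif TATAAA, searched on both strands, was not among these 300 bases and was in 13.6% of those promoters. D7Ertd143e does not overlap Mir290a, so these bases were not shown to be the promoter of the transcript that carries Mir290a. The search therefore does not tell whether that promoter has a TATA motif. The protein-coding gene Nlrp12, an innate immune receptor, also overlaps the hairpins in this annotation. The nearest other protein-coding genes are AU018091 on one side and Myadm on the other.

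At the precursors themselves, 3 targets had a peak in both conditions. H3K4me3, Pol II and H3K79me2 covered the block completely or almost so. The wide H3K4me3 and Pol II peaks overran it on both sides, so the length there was at its maximum and could not show a difference in either. H3K4me3 and Pol II each covered 2.251 of 2.251 kb in untreated and in Adriamycin-treated cells. H3K79me2 covered 2.224 kb before and 2.251 kb after treatment. H3K27me3 and hnRNP L had no peak anywhere in the window in either condition.

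**Figure D1:**
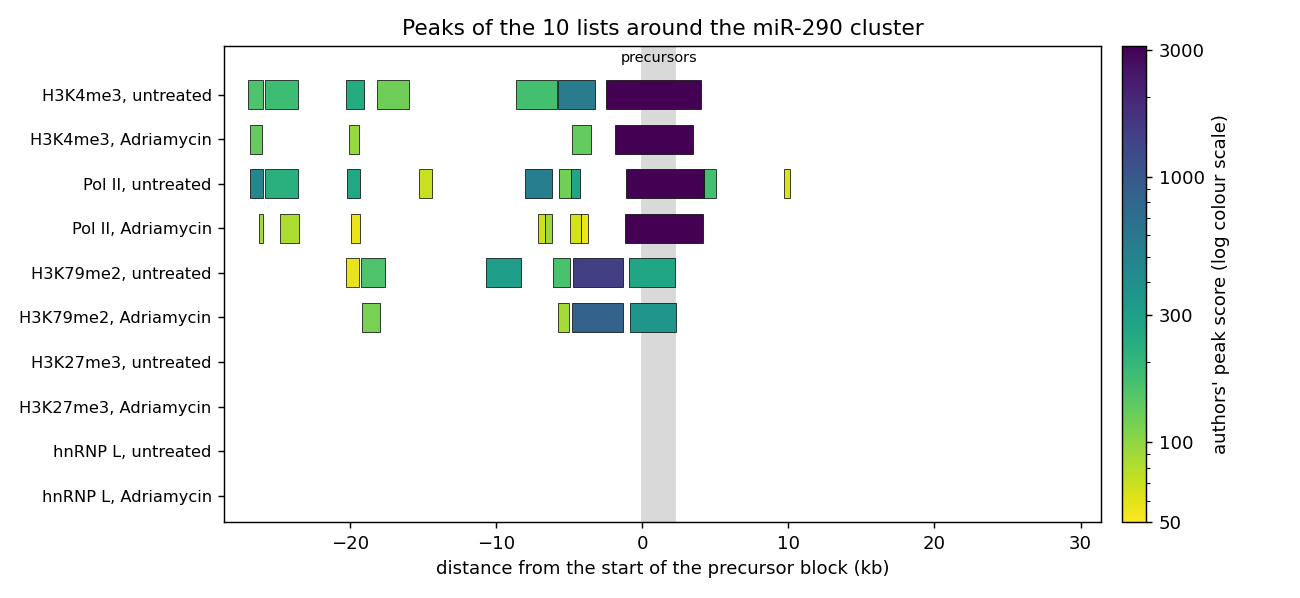
Peaks of the 10 lists, drawn to scale against the distance in kb from the start of the precursor block (grey band). Colour gives the authors' peak score on a log scale, and 1 peak each of H3K4me3 and Pol II over the block has a score of 3100 in both conditions. To the left H3K4me3 has 6 untreated and 3 Adriamycin peaks, Pol II 7 and 7, and H3K79me2 5 and 3; scores are read within a row.

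Pol II, the enzyme that makes the primary transcript, had 1 wide peak over the block in each list. In untreated cells it ran from 3217489 to 3222815 (5327 bp), and after Adriamycin from 3217449 to 3222788 (5340 bp). The start and the end moved by -40 and -27 bp. The peak thus began 1111 and 1151 bases before the block and ended 1965 and 1938 bases after it.

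Both Pol II peaks had a score of 3100. The score is the authors' value, which in this generation of the peak caller MACS is 10 times −log10 of its p-value, and scores of 3100 and above are treated here as its ceiling. At the ceiling a score no longer tells peaks apart, so equal scores do not show equal binding. In the untreated list 2414 Pol II peaks (2.98%) reached the ceiling, and in the Adriamycin list 269 (0.453%), the miR-290 peak among them. Width separates these peaks further. The miR-290 peak was wider than 84.4% of the 2414 and than 63.6% of the 269.

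H3K4me3 also had 1 wide peak over the block, from 3216089 to 3222635 in untreated cells (6547 bp) and from 3216758 to 3222057 after Adriamycin (5300 bp). Unlike the Pol II peak it was shorter at both ends after treatment, with its start moved by 669 bp and its end by -578 bp. It had a score of 3100 in both lists, as high as the ceiling shared by 9209 untreated and 9080 Adriamycin peaks. It belonged to the widest H3K4me3 peaks of either list. Only 337 of 38421 untreated peaks and 359 of 41705 Adriamycin peaks were wider, and the median width at the ceiling was 2625 and 2368 bp. Over whole lists, untreated and Adriamycin, the median width was 1271 and 1060 bp for H3K4me3, and 694 and 691 bp for Pol II.

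**Figure D2:**
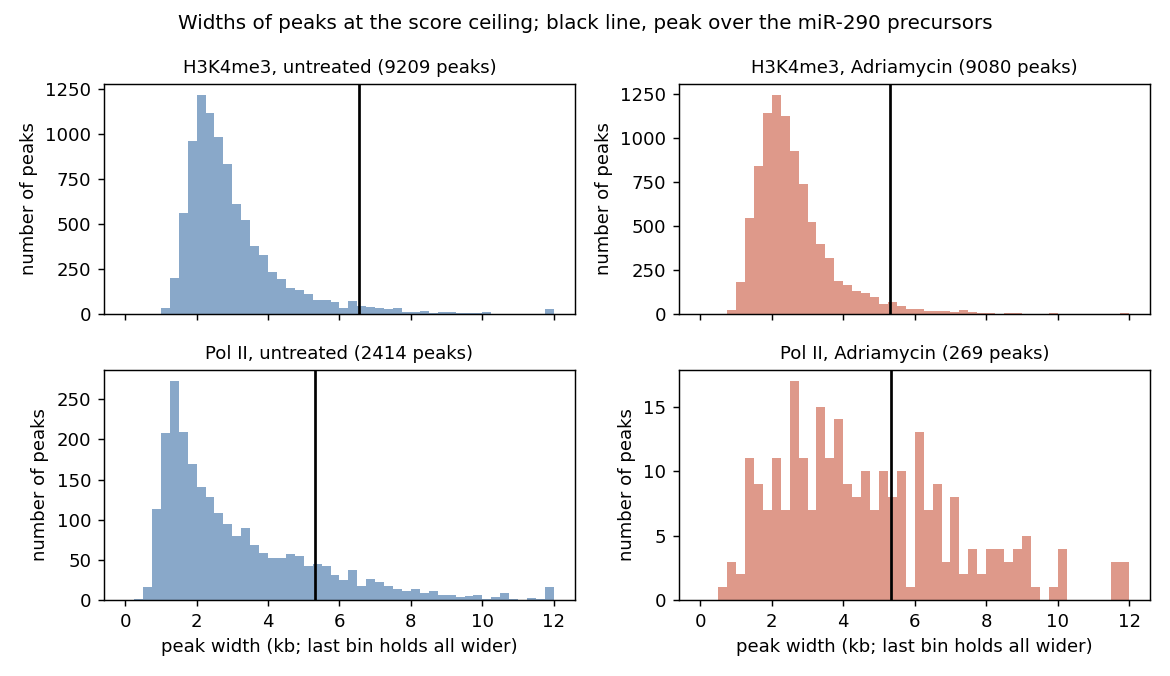
Number of peaks by width in kb among peaks with a score of 3100 or more, for H3K4me3 (top) and Pol II (bottom) in untreated (left) and Adriamycin-treated cells (right). The black line marks the peak over the miR-290 precursors, which lies in the right tail for H3K4me3 (6.547 and 5.30 kb) and at 5.327 and 5.34 kb for Pol II.

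H3K79me2, which is laid down by Dot1l along the first part of transcribed genes, was split in 2 peaks near the block. The weaker peak lay over the precursors, from 3217679 to 3220823 (score 268.83) in untreated cells and from 3217786 to 3220894 (score 353.48) after Adriamycin. Its end fell 27 bp short of the end of the block in untreated cells and 44 bp beyond it after treatment. H3K79me2 thus ended close to the end of the block, and Pol II 1965 and 1938 bases beyond it.

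The stronger H3K79me2 peak lay upstream of the precursors. It ran from 3213875 to 3217295 in untreated cells (3421 bp, score 1444.4) and from 3213784 to 3217281 after Adriamycin (3498 bp, score 854.51). It was the highest-scoring H3K79me2 peak of the window in both lists and scored above 88.4% of the untreated list and 84.8% of the Adriamycin list. The wide Pol II peak over the block began only after this H3K79me2 peak had ended.

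Between the 2 H3K79me2 peaks lay a break of 383 bp in untreated cells (3217296 to 3217678) and of 504 bp after Adriamycin (3217282 to 3217785). The wide Pol II peak began inside the break in both conditions, 193 and 167 bases from its left end. The H3K4me3 peak spanned the whole break in both. This order of edges, with H3K79me2 on either side of the place where Pol II began, was the same in the untreated and the Adriamycin lists. Peak edges of 1 library have no error, so shifts of this size cannot be set against a spread.

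Upstream of the block, on the side of lower coordinates, lay a chain of smaller peaks that reached back about 27 kb, where the lengths under peaks were lower after Adriamycin. They are not set against the block, where the length was at its maximum. The precursors other than Mir290b and Mir292b are on the plus strand, so this is the side before their transcript. H3K4me3 covered 14.541 kb of the 28.6 kb of window there without treatment and 4.572 kb after Adriamycin. Pol II covered 9.329 and 5.404 kb, and H3K79me2 10.407 and 6.332 kb. After treatment the upstream length was 31.4% of the untreated one for H3K4me3, 57.9% for Pol II and 60.8% for H3K79me2.

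Downstream of the block the lengths were short. H3K4me3 covered 1.785 kb before and 1.207 kb after treatment, Pol II 3.165 and 1.938 kb, and H3K79me2 0 and 0.044 kb. Nothing else lay in the window to the right, apart from 2 Pol II peaks of the untreated list. One, from 3222853 to 3223652 (score 171.32), continued the wide peak after 37 bases, and the other lay at 3228313-3228712 (score 62.82). Beyond its last peak here, Pol II had no peak for 23.165 kb in the untreated list and 67.489 kb in the other.

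**Figure D3:**
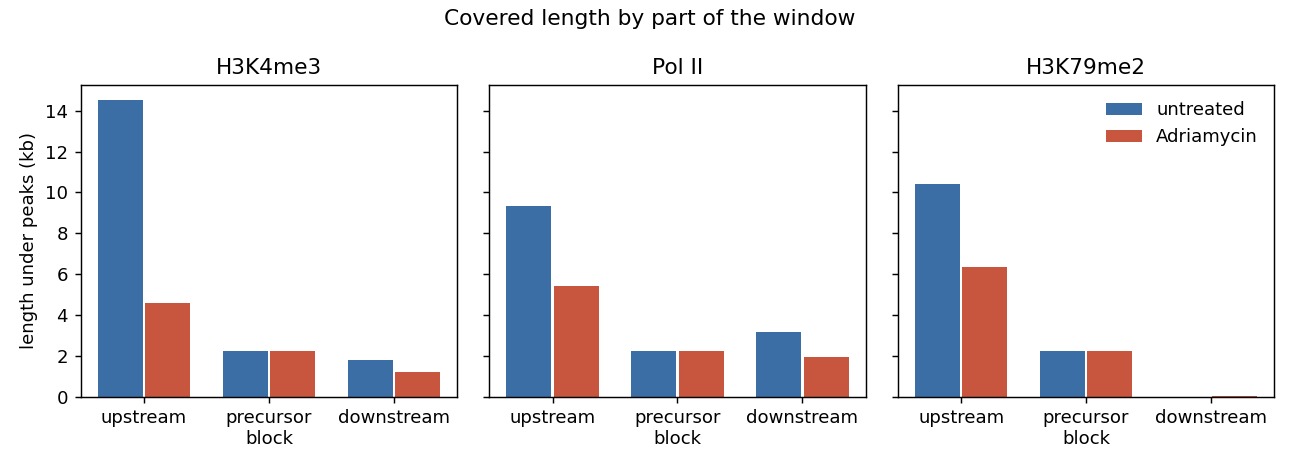
Length in kb under peaks of H3K4me3, Pol II and H3K79me2 upstream of, within and downstream of the precursor block, 1 library per bar and so without error bars. Over the block the H3K4me3 and Pol II bars are at the maximum of 2.251 kb, and upstream the Adriamycin bars are lower, with 14.541 against 4.572 kb for H3K4me3.

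H3K4me3 had 6 peaks off the block in untreated cells, with scores from 125.26 to 568.25 (median 177.425) and widths from 1004 to 2819 bp. After Adriamycin it had 3, with scores from 96.41 to 134.41 and widths from 655 to 1306 bp. All 3 overlapped an untreated peak, so no H3K4me3 peak was found only after treatment. Of the 7 untreated peaks 3 had no Adriamycin partner, where a partner is a peak of the same target that overlaps by at least 1 bp. Over the whole untreated list 14.5% of peaks had none. Of the 4 Adriamycin peaks 0 lacked a partner, against 15.8% of that list.

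The 3 untreated H3K4me3 peaks without a partner lay at 3192778-3195025 (2248 bp, score 184.15), 3200451-3202659 (2209 bp, score 125.26) and 3209977-3212795 (2819 bp, score 170.7). They were wider than 77.5 to 87.5% of the untreated list, and each scored below the list's median of 385.71. The strongest upstream peak, at 3212855-3215335 (score 568.25), kept a partner at 3213772-3215077 (score 134.41).

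Pol II had 9 peaks off the block in untreated cells, with scores from 62.82 to 541.31 (median 226.81), against a list median of 121.25. After Adriamycin it had 7, with scores from 56.35 to 91.3 (median 67.87), all 7 below that list's median of 101.04. The strongest untreated ones were at 3210594-3212439 (1846 bp, score 541.31) and 3191781-3192611 (831 bp, score 457.19). At the first the Adriamycin list held 2 peaks of 472 and 434 bp (scores 67.87 and 91.3), and at the second 1 peak of 262 bp (score 86.54).

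Of the 7 untreated Pol II peaks upstream, 6 had a partner after Adriamycin. Of the 10 untreated peaks 3 had no partner, against 48.0% over the whole untreated list. Of the 8 Adriamycin peaks 1 had none, at 3214415-3214865 (score 56.35), against 26.1% over that list. The untreated peaks without a partner were the 2 downstream ones and a weak one at 3203310-3204205 (score 70.26).

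Off the block, H3K79me2 had 5 untreated and 3 Adriamycin peaks. Of its 6 untreated peaks 2 had no partner, against 19.0% of the untreated list, and of its 4 Adriamycin peaks 0 lacked one, against 18.0% of that list. The stronger of the 2 was at 3207925-3210280 (2356 bp, score 312.94), of which 304 bp lay under an H3K4me3 peak and 0 bp under Pol II. The other was at 3198331-3199197 (score 56.91). A peak at 3199365-3201003 (score 157.53) and one at 3212463-3213665 (score 162.93) had partners of 1292 and 728 bp.

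With 3 or fewer unpartnered peaks per list, these counts are coarse, and for each target they describe 1 pair of libraries.

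Joined over gaps of up to 1 kb, the peaks of all 6 lists fell into 4 stretches. The farthest, at -26.967 to -23.524 kb from the start of the block, carried H3K4me3 and Pol II without H3K79me2 in both conditions. H3K4me3 covered 3.252 kb there before and 0.769 kb after treatment, and Pol II 3.066 and 1.51 kb. The next stretch, at -20.28 to -14.395 kb, carried all 3 targets in both conditions. H3K4me3 covered 3.478 and 0.655 kb of it, Pol II 1.84 and 0.646 kb, and H3K79me2 2.506 and 1.292 kb.

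The third stretch, from -10.675 to 5.052 kb, took in the precursors and the large H3K79me2 peak. H3K4me3 covered 11.847 and 6.606 kb of it, Pol II 9.439 and 7.437 kb, and H3K79me2 10.125 and 7.335 kb. The last stretch was the single untreated Pol II peak downstream. In each of the first 3 stretches every target present covered less after Adriamycin, and the lower values were not confined to the precursors' neighbourhood.

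Upstream, smaller shares of Pol II and H3K79me2 lay under H3K4me3 after treatment, where H3K4me3 itself was shorter. In untreated cells 8.433 kb of the upstream Pol II length (90.4%) lay under H3K4me3, and after Adriamycin 2.969 kb (54.9%). For H3K79me2 the length under H3K4me3 was 6.681 kb (64.2%) and 2.632 kb (41.6%). Taken the other way, the share of upstream H3K4me3 under Pol II was 58.0% and 64.9%, and under H3K79me2 45.9% and 57.6%. The share of Pol II under H3K79me2 was 32.5% and 35.0%. H3K79me2 without H3K4me3 took up 3.726 and 3.70 kb upstream. All 3 targets together covered 3.035 kb upstream before and 1.894 kb after treatment, and over the block 2.224 and 2.251 kb.

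Over the whole window H3K4me3 covered 18.577 kb before and 8.03 kb after Adriamycin. All 8.03 kb lay within the untreated peaks, so the Adriamycin peaks were a subset of the untreated ones. Pol II covered 14.745 and 9.593 kb, of which 8.957 kb were common to both. H3K79me2 covered 12.631 and 8.627 kb, with 8.465 kb in common.

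These differences were read against other windows of 60 kb tiled along the numbered chromosomes and X. Windows were kept if they had at least 1 kb of the target in untreated cells. Those covered only after Adriamycin are thus left out, which favours lower lengths after treatment in the medians and shares that follow. For each window the log2 ratio of Adriamycin to untreated length was taken, with 1 kb added to each length. For H3K4me3 the ratio at the locus was -1.12, and the median of 13088 windows was -0.07. The locus was among the lowest, since 214 windows (1.64%) were at or below it. A lower length after Adriamycin was itself common, in 65.8% of those windows.

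For Pol II the ratio at the locus was -0.57 against a median of -0.43 over 11175 windows, and 40.0% of windows were at or below it. Pol II length was lower in 81.6% of these windows, so the locus lay near the middle of a difference seen in most of them. When peaks under a score of 100 were left out, the Pol II ratio at the locus was -1.19, because 7 of 8 Adriamycin peaks score under 100, and 19.3% of 9529 windows were at or below it. For H3K79me2 the ratio was -0.50 against a median of -0.09 over 8934 windows, with 11.1% at or below it and 72.2% below 0. Without peaks under a score of 100, the share at or below the locus was 1.64% for H3K4me3 and 12.9% for H3K79me2. With equal numbers of top-scoring peaks, 2.17% of windows were at or below the locus for H3K4me3, 36.7% for Pol II and 15.9% for H3K79me2.

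**Figure D4:**
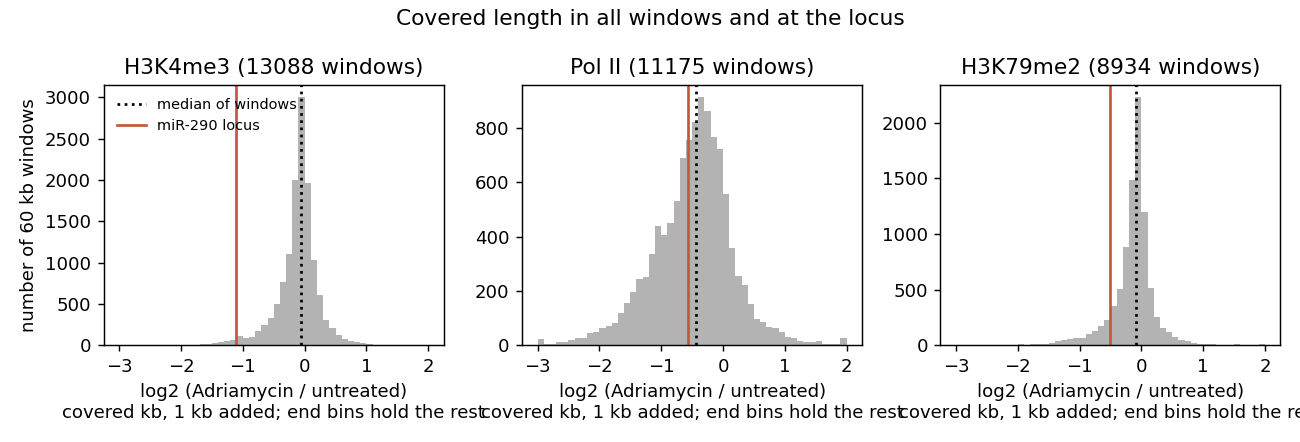
Log2 ratio of the length under peaks, Adriamycin over untreated, with 1 kb added to each length, for H3K4me3, Pol II and H3K79me2. Grey bars give the number of 60 kb windows that had at least 1 kb of the target in untreated cells. Values beyond the axis are in the end bins. The red line, the miR-290 locus, lies far left of the dotted median for H3K4me3 (-1.12 against -0.07) and close to it for Pol II (-0.57 against -0.43).

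The locus was densely covered to begin with. Its 18.577 kb of H3K4me3 in untreated cells was more than in 98.6% of the windows, its Pol II length more than in 88.1%, and its H3K79me2 length more than in 52.2%. Among the 1246 windows with at least 10 kb of H3K4me3 in untreated cells, a limit chosen after the values were seen, the median ratio was -0.22 and 28 windows (2.25%) were at or below the locus. Among the 2432 windows with at least 10 kb of Pol II, 1215 were at or below it. Among the 5014 with at least 10 kb of H3K79me2, 255 (5.09%) were. These windows too were picked by untreated length alone, which favours lower lengths after treatment. The ratio was below 0 in 83.8% of them for H3K4me3, 91.3% for Pol II and 76.2% for H3K79me2.

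Of 43978 windows, the 3 most like the locus over all 10 lists were found by the Euclidean distance of log2(covered kb + 1). The nearest, at chr15:98760001-98820000 (distance 0.539), held 16.101 kb of H3K4me3 before and 6.52 kb after treatment. It held 13.412 and 7.223 kb of Pol II, and 12.843 and 9.909 kb of H3K79me2. The others were chr7:148140001-148200000 (distance 0.761) and chr2:154200001-154260000 (distance 0.821), where H3K4me3 covered 13.293 and 11.815 kb, and 14.266 and 10.525 kb. None of the 3 held H3K27me3 or hnRNP L. The distance took in all 10 lists, so this absence and lengths like those of the locus follow from the choice.

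The nearest H3K27me3 peaks to the block on the right began 43.518 kb away in the untreated list and 43.424 kb away after Adriamycin. On the left they ended 108.007 and 119.624 kb away. hnRNP L had no peak on the left between the block and the chromosome's start in either list, and on the right none for 16397.663 kb in the untreated list and 9374.559 kb in the Adriamycin list. The whole hnRNP L lists hold only 1120 and 1022 peaks. A list gives only what passed the authors' threshold, so weaker binding of either target at the cluster is not shown to be absent.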

How the data were processed

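Per the submitters' processing notes, CASAVA 1.8.2 and MACS 1.4.1 were used with build mm9. The authors deposited 1 peak list per library with a score for each peak. The lowest score was 50.0. Whether an input library was used, how deep the libraries were and how duplicates were treated is not stated in the labels.

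Peaks overlapping the window were taken as members, with 1-based coordinates. Lengths under peaks were counted in the window and in its parts, and scores were used only within a list. The background is all peaks of a list, or the 60 kb windows kept by their length in untreated cells. The most alike windows, the peaks named (within 5 kb of the block, strongest per list, or unpartnered with a score of at least 100) and the neighbouring genes followed fixed rules, of which the second neighbour on each side is not reported here; other peaks named were chosen after their values were seen. The window and all rules were chosen with earlier results of these data known. The overlap and length steps were checked on simulated lists. Alternatives are in the closing section. Calculations ran in Python 3.11.15 with pandas 2.3.3 and numpy 2.4.6, intervals in SciPy 1.17.1, and figures were drawn with matplotlib 3.10.9.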

Additional observations from a re-analysis of the deposited data

How the results depend on the processing

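No paired analysis was possible because each group had 1 library. The log2 ratio of Adriamycin to untreated length kept its sign for H3K4me3, Pol II and H3K79me2 under the alternatives run, and no result reversed. For these 3 targets 32 of 63 alternative values stayed within the limits used and 31 moved, by construction of the alternatives (fewer or joined peaks, a shorter window). The limit for a length was the 95% binomial interval of its bases, a working limit only, since neighbouring bases are not independent and 1 library gives no spread. H3K27me3 and hnRNP L, with no peak, could not change. With a score of at least 100, lengths were 7.375 kb (H3K4me3, Adriamycin), 13.449 and 5.34 kb (Pol II, untreated and Adriamycin), and 11.764 and 7.899 kb (H3K79me2). The ratios were -1.22 for H3K4me3 and -1.19 for Pol II, and peaks without a partner numbered 1 and 0 for Pol II and 1 for untreated H3K79me2. With equal numbers of top-scoring peaks, untreated Pol II covered 13.449 kb with 1 unpartnered peak, and its ratio was -0.45. With peaks within 1 kb merged, lengths were 20.392 kb (H3K4me3, untreated), 15.414 kb (Pol II, untreated), and 13.39 and 9.332 kb (H3K79me2), and the ratios -1.24 for H3K4me3 and -0.63 for Pol II. In a window shortened by 10 kb at each end, lengths were 14.056 and 6.606 kb (H3K4me3), 10.735 and 7.437 kb (Pol II), and 11.129 and 8.015 kb (H3K79me2), with ratios of -0.99, -0.48 and -0.43 and 1 unpartnered H3K79me2 peak in untreated cells. With 0.1 kb added in place of 1 kb, the ratios were -1.20 for H3K4me3 and -0.61 for Pol II. Depth is unknown, so a lower length can be less binding or a less sensitive library; the 2 cannot be told apart.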
